A study of Mus musculus with 6 samples.

Results

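Hepatocyte transcription factors were followed in RNA from eYFP-positive cells sorted out of fetal mouse liver at embryonic days 16 (E16) and 18 (E18). The 9 factors formed a list (Hnf4a, Foxa1, Foxa2, Foxa3, Cebpa, Prox1, Onecut1, Nr1h4 and Nr5a2) matched by symbol, and all 9 were found among the 54532 genes of the table. Both days used CD-1 mice of genotype Sm22-Cre/ROSA26RYFP, in which Cre is driven by the Sm22 promoter of smooth muscle and related mesenchyme and leaves a lasting eYFP mark. Livers were dissociated with collagenase IV and Dispase, and eYFP-positive cells were sorted, with 3 libraries a day (replicates A, B and C). Whether the libraries are separate litters, animals or pools is not stated, and p-values therefore cover no more than the spread among the 6 libraries, part of which could be technical. Where 3 values are given for a day they stand in the order A, B, C. The factors were read as a measure of hepatocyte RNA in a sort aimed at mesenchyme.

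Hepatocyte identity rests on a network of transcription factors that bind each other's promoters as well as those of liver genes. HNF4A is a nuclear receptor that holds the network together, the FOXA proteins open chromatin at liver enhancers, and C/EBP alpha drives metabolic genes. Prox1 and Onecut1 (HNF6) act early, when hepatoblasts leave the liver bud, and the nuclear receptors Nr1h4 (FXR, a bile acid sensor) and Nr5a2 (LRH-1) govern bile acid genes. Several are also made outside hepatocytes: Prox1 in lymphatic endothelium, and Onecut1 and the Foxa genes in bile duct cells.

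Sequences just before the start sites were searched for short motifs of the network itself, because the factors are known to regulate each other. RefSeq windows on GRCm38.p6, the assembly of mm10, were found for all 9 genes, 14 windows in all, and the 250 bases before each start were used. Motifs were searched on both strands: TGTTTAC for FOXA, CAAAGTCCA for HNF4, TTGCNNAA for C/EBP, ATTGATT for HNF6, CAAGGTCA for LRH-1, and its shorter part AGGTCA, the nuclear receptor half-site. At least 1 of these was found in 6 of the 14 windows. The share of all RefSeq windows with at least 1 of them was not computed, so this count is not read as a trait of the 9 genes. Windows of 4 factors are shown as examples of such matches, which stand in capitals: the upstream start of Hnf4a (chr2:163506607-163506856, plus strand, HNF6), Foxa1 (chr12:57546112-57546361, minus strand, FOXA), Nr5a2 (chr1:136960449-136960698, minus strand, half-site) and Nr1h4 (chr10:89506659-89506908, minus strand, half-site).
Hnf4a: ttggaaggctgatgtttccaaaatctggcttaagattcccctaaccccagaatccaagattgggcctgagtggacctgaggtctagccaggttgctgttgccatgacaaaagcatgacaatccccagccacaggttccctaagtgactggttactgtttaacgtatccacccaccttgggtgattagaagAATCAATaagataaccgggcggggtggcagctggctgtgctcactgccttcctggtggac
Foxa1: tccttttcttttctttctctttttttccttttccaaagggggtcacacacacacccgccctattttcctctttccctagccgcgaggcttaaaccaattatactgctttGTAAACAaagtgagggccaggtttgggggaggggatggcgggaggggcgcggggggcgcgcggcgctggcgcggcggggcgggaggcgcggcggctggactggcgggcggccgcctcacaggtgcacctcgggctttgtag
Nr5a2: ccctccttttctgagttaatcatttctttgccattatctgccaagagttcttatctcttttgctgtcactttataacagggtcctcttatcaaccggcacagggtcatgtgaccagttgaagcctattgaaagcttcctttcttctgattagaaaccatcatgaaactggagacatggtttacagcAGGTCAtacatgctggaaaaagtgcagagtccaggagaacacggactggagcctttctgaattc
Nr1h4: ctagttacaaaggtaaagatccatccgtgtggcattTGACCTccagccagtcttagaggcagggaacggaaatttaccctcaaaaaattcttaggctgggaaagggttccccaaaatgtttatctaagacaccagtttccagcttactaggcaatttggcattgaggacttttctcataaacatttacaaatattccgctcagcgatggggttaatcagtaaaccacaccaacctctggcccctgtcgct

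Of 32851 RefSeq windows of this length, 3.17% held the FOXA letters and 14.0% the half-site. The HNF6 letters, found in 2.61% of windows, were also in 1 window of Foxa2 (chr2:148046970-148047219). A downstream window of Nr5a2 held the C/EBP letters, found in 9.56% of windows. The windows of Foxa3, Cebpa, Prox1 and Onecut1 held none of the letters searched. The HNF4 letters, present in 0.384% of windows, and the LRH-1 letters, present in 1.33%, were in no window of the 9 genes. These are matches of letters and not measured binding. Gene-level values do not tell the upstream and downstream starts of Hnf4a apart. The Nr1h4 window lies inside the longer gene of GENCODE (chromosome 10, 89454234 to 89533585). So does the Foxa1 window (gene at chromosome 12, 57540628 to 57546916), and the Hnf4a window shown runs past the GENCODE gene start at 163506808.

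The sort held hepatocyte, mesenchymal and erythroid RNA in every library. Values are TPM, a length-normalized abundance with the same total in every library. Summed TPM of 20 hepatocyte plasma protein genes, such as Alb and Afp, was 3025, 10070 and 2466 at E16 and 427, 949 and 1113 at E18. For 12 mesenchymal genes the sum ran from 396 to 791 at E16 and from 2209 to 5790 at E18, and for 10 erythroid genes from 5104 to 6930 and from 10403 to 18280. Among bile duct markers Epcam was listed at 0 in all libraries but E18 replicate C, at 0.532 TPM, and the summed TPM of the 10 markers was 12.4 to 22.7 and then 27.9 to 48.5. Of the 4 tested, Krt19 was called higher, a call lost when any library but E18 replicate C was left out. Krt7 was higher in every E18 library (1.11 and 4.25 TPM) without a call, as were Sox9 and Spp1, both too low to be tested. Cdh1 was lower in every E18 library (7.34 and 0.692 TPM) without a call. Like the plasma proteins, it was highest in E16 replicate B, at 12.9 TPM. In an alternative fit, limma's voom on recovered reads, 1 of the 4 was called lower and 2 higher, beside 0.999% and 7.25% of all genes. Recovered depth was 21130204 to 22626876 reads at E16 and 14587550 to 18281951 at E18, so 1 TPM of a gene of 1 kb stands for 4.41 to 6.83 reads. In such bulk samples fewer hepatocytes and less factor RNA per hepatocyte cannot be told apart.

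Most of the factors were lower at E18, and Nr1h4 was the factor with the largest difference in the other direction. Mean TPM was lower at E18 for 7 factors and higher for Nr1h4 and Onecut1. In 6 of the 9, namely Hnf4a, Foxa1, Foxa2, Foxa3, Prox1 and Nr5a2, every E18 value lay below every E16 value; over all 17824 genes tested, 8.05% had values that separated the days in this direction and 18.4% in the other. Cebpa, Onecut1 and Nr1h4 overlapped between days. Genes were tested where TPM reached 1 in at least 3 of the 6 libraries, which 5 of the 9 factors did: Hnf4a, Foxa3, Cebpa, Prox1 and Nr1h4. Limma on log2(TPM + 1), with adjusted p under 0.05 as the call, called 1 of these lower (Hnf4a) and 0 higher. The background of calls was 0.387% lower, 3.08% higher and 3.47% in either direction over all genes tested. At an unadjusted p under 0.05 Hnf4a, Foxa3 and Prox1 were lower and Nr1h4 was higher, beside 5.65% of all genes lower and 15.2% higher. Of all calls 88.8% were higher at E18, or 76.5% when Gm26917, mitochondrial and small RNA genes did not enter the scaling. Foxa3 and Prox1 passed the filter through their E16 values alone, so they had to differ between days. Foxa1, Foxa2 and Nr5a2 were under the filter and are not among the 17824 genes, so the 6 of 9 has no like share beside it. Neither that count nor a count over the 5 is read as support.

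**Figure D1:**
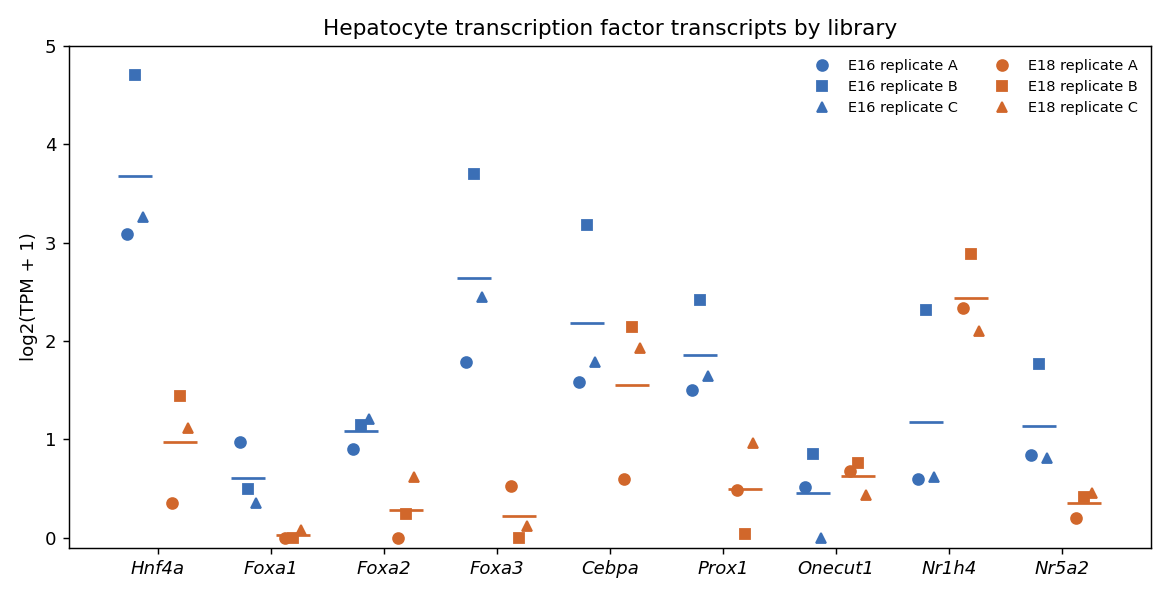
Abundance of the 9 factors as log2(TPM + 1) in each library, with the 3 E16 libraries in blue, the 3 E18 libraries in orange and a line at each mean. E16 replicate B (square) is the highest library for 6 of the 9 genes, and Nr1h4 stands out with its highest value at E18.

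Hnf4a (ENSMUSG00000017950, chromosome 2, 163506808 to 163572910, mm10) was the most abundant of the factors at E16. It stood at 7.49, 25.0 and 8.57 TPM at E16 and at 0.282, 1.72 and 1.16 TPM at E18. E16 replicate B was far above the other two, and the days did not overlap. These values rest on 247, 803 and 268 reads at E16 and on 6, 38 and 31 at E18. The mean fell from 13.7 ± 9.83 to 1.06 ± 0.726 TPM (SD, n = 3 each), 13.0-fold lower, and the limma log2 fold change was −2.71 (SE 0.52, adjusted p = 0.0427). The call held in 6 of 16 alternative fits. With any 1 library left out the limma adjusted p lay between 0.0615 and 0.125, while the fold change was negative in all 16 fits (−3.76 to −1.51).

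The 3 Foxa genes encode proteins that share a forkhead DNA-binding domain, and Foxa3 was the most abundant of them in each E16 library. Foxa3 (ENSMUSG00000040891, chromosome 7, 19013284 to 19023538), the form best known from mature liver, stood at 2.44, 12.0 and 4.47 TPM at E16 and at 0.445, 0 and 0.0889 TPM at E18. Its E18 total was 5 reads against 255 at E16, and the count of 0 in E18 replicate B allows up to 0.322 TPM (3 reads). With reads of each day pooled and scaled to depth, the E16 level was 37.1 times the E18 level (95% exact interval 15.7 to 115, for counting error only). The log2 fold change was −2.43 ± 0.52 and missed the threshold (limma adjusted p = 0.0520; 0.00746 to 0.149 over 16 alternatives, called in 3).

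Foxa2 (ENSMUSG00000037025, chromosome 2, 148042877 to 148046969), needed with Foxa1 for liver to be specified, stood at 0.865, 1.21 and 1.30 TPM at E16 and at 0, 0.185 and 0.535 TPM at E18. Unlike Hnf4a and Foxa3 it was not highest in E16 replicate B. Foxa1 (ENSMUSG00000035451, chromosome 12, 57540628 to 57546916) was at 0.968, 0.407 and 0.278 TPM at E16 and at 0, 0 and 0.0544 TPM at E18, a total of 37 reads against 1. Both genes were under the filter. Pooled reads put Foxa2 at 4.28 times its E18 level (95% exact interval 2.09 to 9.88) and Foxa1 at 26.9 times (4.54 to 1091). When all genes with at least 10 reads were fitted with limma's voom on recovered reads, an alternative chosen after the values were seen, neither passed (limma adjusted p = 0.177 for Foxa2 and 0.109 for Foxa1).

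Cebpa (ENSMUSG00000034957, chromosome 7, 35119293 to 35121928), a leucine zipper factor that restrains growth and turns on metabolic genes, overlapped between days. It stood at 2.0, 8.05 and 2.46 TPM at E16 and at 0.516, 3.40 and 2.82 TPM at E18. E18 replicates B and C lay above E16 replicates A and C, and E18 replicate A, with 6 reads, lay below all others. The log2 fold change was −0.63 ± 0.58 (limma adjusted p = 0.618; 0.129 to 0.939 over 16 alternatives). The 8 leukocyte markers listed summed to 59.8, 43.0 and 58.8 TPM at E16 and to 118, 119 and 49.5 TPM at E18. Of 4 tested, 2 (Lyz2 and S100a9) were called higher and 0 lower, beside 3.08% and 0.387% of all genes. S100a9 passed the filter through its E18 values alone, and with a pseudocount of 5 neither was called. The part of leukocyte RNA in the Cebpa values was not tested.

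Prox1 (ENSMUSG00000010175, chromosome 1, 190118035 to 190170714), a homeobox factor of early hepatoblasts, was at 1.83, 4.36 and 2.14 TPM at E16 and at 0.405, 0.0261 and 0.949 TPM at E18. The days did not overlap, and the E18 libraries themselves ran from 1 read in replicate B to 44 in replicate C. The log2 fold change was −1.36 ± 0.40 (limma adjusted p = 0.11; 0.0178 to 0.270 over 16 alternatives, called in 1). An opposite-strand gene covers 1.585 percent of its exon length, and whether counting used the strand is not given in the sources used here. The 10 endothelial and lymphatic markers beside it summed to 29.3 to 42.9 TPM at E16 and 23.9 to 34.6 TPM at E18, with 0 of 3 tested called (1 in each direction at an unadjusted p under 0.05; 1 lower by limma's voom). Egfl7 made up most of that sum (34.3 and 16.9 TPM). Pdpn (1.16 and 4.56 TPM) and Flt4 (0.784 and 1.51 TPM) were higher in every E18 library without a call. Flt4 passed the filter through its E18 values alone, so it had to differ between days. Cdh5 was listed at 0 in 4 of the 6 libraries, and Lyve1 lay at 0 to 0.265 TPM and 0.310 to 0.974 TPM. The part of the cells these markers stand for in the Prox1 values was not tested.

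Onecut1 (ENSMUSG00000043013, chromosome 9, 74861921 to 74891781), the HNF6 gene, was near the limit of detection, at 0.427, 0.805 and 0 TPM at E16 and 0.606, 0.691 and 0.352 TPM at E18. Its totals were 34 and 32 reads, and no difference between the days was detectable at this depth (pooled ratio of E18 to E16 1.29, 95% exact interval 0.773 to 2.16). Of its exon length 52.8% lies under the same-strand gene Gm20649, which is listed at 0 in all 6 libraries, and how reads that fit both genes were counted is not given in the sources used here. All of the bile duct markers listed but Cdh1 had a higher mean at E18, several of them near 0. Their part in the Onecut1 and Foxa values was not tested.

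Nr5a2 (ENSMUSG00000026398, chromosome 1, 136842571 to 136960448), whose product LRH-1 acts with FXR on bile acid synthesis, was at 0.794, 2.40 and 0.759 TPM at E16 and 0.154, 0.334 and 0.368 TPM at E18. All E18 values lay below all E16 values. It was under the filter, with 155 reads at E16 and 25 at E18, a pooled ratio of 4.51 (95% exact interval 2.94 to 7.18). In the voom fit on recovered reads it did not pass (limma adjusted p = 0.182).

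Nr1h4 (ENSMUSG00000047638, chromosome 10), the FXR gene, had a higher mean at E18. It stood at 0.509, 3.99 and 0.536 TPM at E16 and at 4.03, 6.36 and 3.30 TPM at E18. E16 replicates A and C, at 8 reads each, were far below every E18 library, while E16 replicate B, at 61 reads, lay within the E18 range. The means were 1.68 ± 2.0 and 4.57 ± 1.60 TPM (SD, n = 3 each), and the log2 fold change of 1.26 ± 0.53 did not pass (limma adjusted p = 0.236). Without E16 replicate B it was 1.83, with a limma adjusted p of 0.0926; over the 16 alternatives the fold change ran from 0.55 to 2.01 and the adjusted p from 0.0186 to 0.508, with 1 call, under array weights. At E18 the order of libraries for Nr1h4 (B, then A, then C) was that of the mesenchymal sum, at 5790, 2709 and 2209 TPM, and not that of the plasma proteins. At E16 it was the other way: Nr1h4 was highest in replicate B, as the plasma proteins were, while the mesenchymal sum was highest in replicate C (396, 478 and 791 TPM). The part of mesenchymal RNA in the Nr1h4 values was not tested.

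The order of the factors differed between days. At E16 it ran Hnf4a, Foxa3, Cebpa, Prox1 and Nr1h4, and each of these neighbours kept its order in 3 of 3 libraries, although their ranges over libraries overlapped. At E18 it ran Nr1h4, Cebpa and Hnf4a, again in 3 of 3 libraries. The remaining neighbours, Nr1h4 down to Onecut1 at E16 and Hnf4a down to Foxa1 at E18, kept their order in 1 or 2 of 3 libraries and are not separated by these data.

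The share of Hnf4a in the factor RNA varied little within E16. Hnf4a took 43.2%, 43.0% and 41.8% of the summed TPM of the 9 factors at E16, although that sum was 17.3, 58.2 and 20.5 TPM. At E18 the sum was 6.44, 12.7 and 9.63 TPM, of which Hnf4a took 4.37%, 13.5% and 12.1%. Nr1h4 took 2.93%, 6.85% and 2.61% at E16 and 62.6%, 50.0% and 34.3% at E18. The ratio of Cebpa to Hnf4a was 0.267, 0.322 and 0.287 at E16 but 1.83, 1.98 and 2.42 at E18, so the days were apart.

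**Figure D2:**
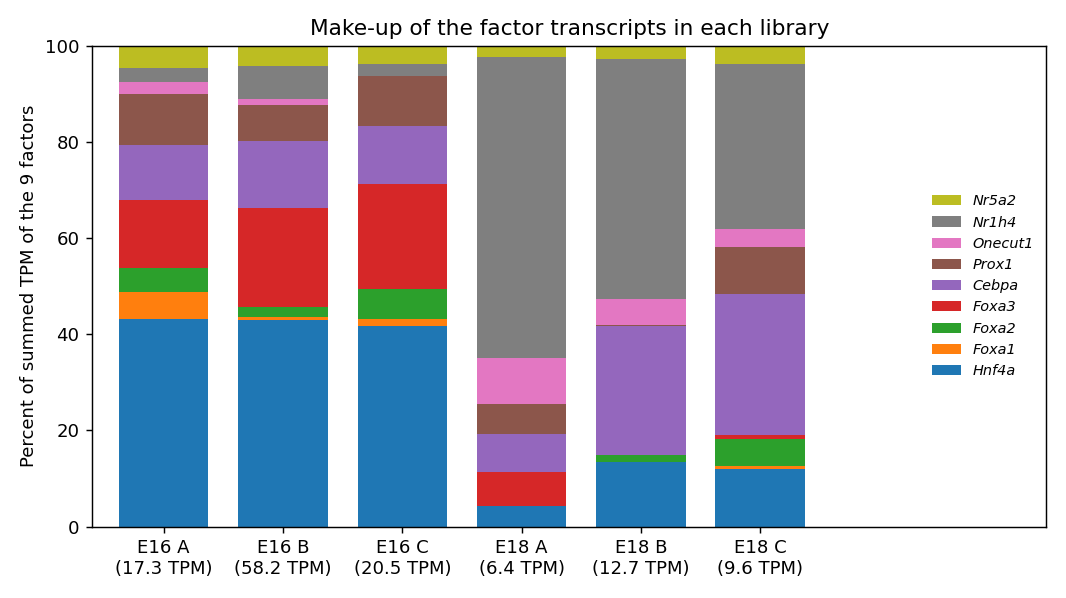
Share of each factor, in percent of the summed TPM of the 9 factors, in each library (bars), with the sum printed below the bar. Hnf4a (blue, at the bottom) takes 41.8% to 43.2% at E16 and 4.37% to 13.5% at E18, and Nr1h4 (grey) takes 34.3% to 62.6% at E18.

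Ratios of single factors to Hnf4a were compared within libraries, where the scaling of a library cancels. These contrasts, over the 4 other factors above 0 in all 6 libraries, were chosen after the values were seen. From E16 to E18 the ratio to Hnf4a was higher by 5.92 on the log2 scale for Nr1h4, by 2.82 for Cebpa and by 1.74 for Nr5a2, and for each the days did not overlap. The exact permutation p, 2-sided, was 0.1 for these 3, the smallest that 3 against 3 libraries can give, or 0.133 adjusted over the 4 contrasts. The ratio of Prox1 to Hnf4a was 0.245, 0.174 and 0.249 at E16 but 1.44, 0.0151 and 0.817 at E18, so the days overlapped (exact permutation p = 1, 2-sided). Foxa3 stood at 0.326, 0.478 and 0.522 of Hnf4a at E16 but at 1.58, 0 and 0.0765 of it at E18, where it rests on 5 reads. Its pooled reads differed by 37.1 times between the days and those of Hnf4a by 12.8 times (95% exact interval 10.1 to 16.4). Such intervals leave out the spread among libraries, and the 2 ratios were not tested against each other.

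Set beside hepatocyte products, the 9 factors were higher at E18, and this rested on Nr1h4. The summed TPM of the 9 factors had a log2 difference of −1.57 (exact permutation p = 0.1, 2-sided, the smallest possible), against −2.46 for the 20 plasma proteins. Per 1000 TPM of plasma proteins, the 9 factors held 5.73, 5.78 and 8.32 TPM at E16 and 15.1, 13.4 and 8.64 TPM at E18, higher in each E18 library than in any E16 library (log2 difference 0.89; exact permutation p = 0.1, 2-sided). Without Nr1h4, an exclusion chosen after the values were seen, the other 8 held 5.56, 5.39 and 8.10 TPM at E16 and 5.64, 6.70 and 5.68 TPM at E18. That is a log2 difference of −0.06, and the days overlapped (exact permutation p = 1, 2-sided).

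Single factors differed in opposite directions on this scale. Alb made up most of the plasma protein sum, at a mean of 2909 of 5187 TPM at E16 and 521 of 830 TPM at E18. The plasma proteins differed unequally between days, with limma log2 fold changes from −5.85 (Serpina6) to −0.99 (Ahsg), beside −2.71 for Hnf4a. Adding 1 TPM understates the change of a gene as low as Hnf4a at E18 (−3.63 with 0.1 TPM added), so its place among them is not read. Because the plasma proteins differed unequally, a factor's difference per 1000 TPM of them depends on those chosen. Other denominators were not tried for single factors. Per 1000 TPM of plasma proteins, Hnf4a held 2.48, 2.49 and 3.48 TPM at E16 and 0.660, 1.81 and 1.04 TPM at E18, a log2 difference of −1.37. Cebpa went from 0.661, 0.800 and 0.998 TPM to 1.21, 3.59 and 2.53 TPM, a log2 difference of 1.46. Nr5a2 differed least, at 0.263, 0.238 and 0.308 TPM and then 0.360, 0.352 and 0.331 TPM (0.37). Nr1h4 went from 0.168, 0.396 and 0.217 TPM to 9.46, 6.71 and 2.96 TPM (4.55). For these 4 the days did not overlap and the exact permutation p was 0.1, 2-sided, or 0.125 adjusted over the 5 factors above 0 in all libraries. Prox1, the fifth, overlapped between days (exact permutation p = 0.9).

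**Figure D3:**
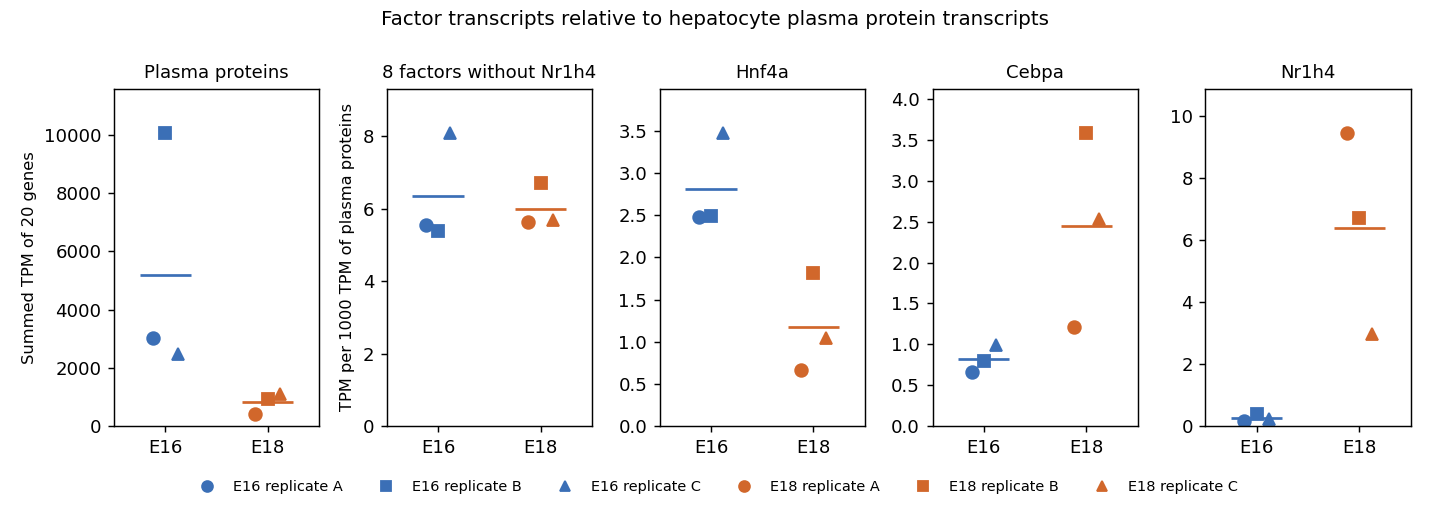
Summed TPM of 20 plasma protein genes (left) and factor TPM per 1000 TPM of those genes in each library, with a line at the mean of each day. The 8 factors without Nr1h4 overlap between days at 5.39 to 8.10, Hnf4a is lower at E18, and Cebpa and Nr1h4 are higher.

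The genes whose profile over the 6 libraries was most like that of Hnf4a were hepatocyte secretory genes. Likeness was the mean absolute difference between the shares of a gene's 6-library sum that fall in each library, over 9552 tested genes, predicted models left out, with a mean of at least 5 TPM. The 5 closest were Hpx, the haem carrier hemopexin, at 0.953 percentage points, Hc, complement C5, at 1.16, Rbp4, the retinol carrier, at 1.29, Ambp at 1.55 and Itih2 at 1.56. Among the closest to the summed factors were Fgb, a fibrinogen chain, at 1.81 percentage points, Cyp2d26 at 1.87, Mat1a at 1.89 and Apom at 1.91.

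Other hepatic transcription factors were found in both directions. Of 30 listed genes, 22 were tested, 1 was called higher and 0 lower (7 and 2 at an unadjusted p under 0.05, and 6 and 0 called by limma's voom on recovered reads). Over all genes tested 15.2% were higher and 5.65% lower at an unadjusted p under 0.05, and voom called 7.25% higher and 0.999% lower. In the list 15 fold changes were positive and 7 negative, with a median of 0.37 on the log2 scale beside 0.07 for all genes tested. The called gene was Nfia, a nuclear factor I gene also expressed in mesenchyme, which rose from 9.76 ± 2.22 to 32.3 ± 3.31 TPM (SD, n = 3; log2 fold change 1.64 ± 0.20; limma adjusted p = 0.0273; 0.00153 to 0.0925 over 16 alternatives). Its call was lost when replicate A or C of E16, or replicate A or B of E18, was left out, at limma adjusted p of 0.0893, 0.0643, 0.0925 and 0.0748. The next by p were Gata6 (2.39 ± 0.575 and 12.6 ± 7.49 TPM), Nr2f2 (5.02 ± 3.26 and 24.0 ± 11.3 TPM) and Nfib (5.19 ± 2.65 and 26.1 ± 14.7 TPM), at limma adjusted p of 0.0546, 0.0551 and 0.0578. All 3 are also known from mesenchymal cells, and each was highest in E18 replicate B, where the mesenchymal sum was highest; the part of mesenchymal RNA was not tested.

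Factors that work more closely with the 9 were low, and the following were picked after their values were seen. Onecut2, the close relative of Onecut1, was at 0.328, 1.27 and 0.726 TPM and then 0.0846, 0.163 and 0.0541 TPM, with non-overlapping days. Mlxipl, the glucose-sensing factor ChREBP, was at 1.22, 1.93 and 0.976 TPM at E16 and listed at 0 in all 3 E18 libraries. Both were under the filter. Among tested genes Creb3l3 (log2 fold change −1.72 ± 0.44; limma adjusted p = 0.0771) and Hhex (−1.10 ± 0.35; limma adjusted p = 0.131) were lower in every E18 library than in any E16 library and did not pass.

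**Figure D4:**
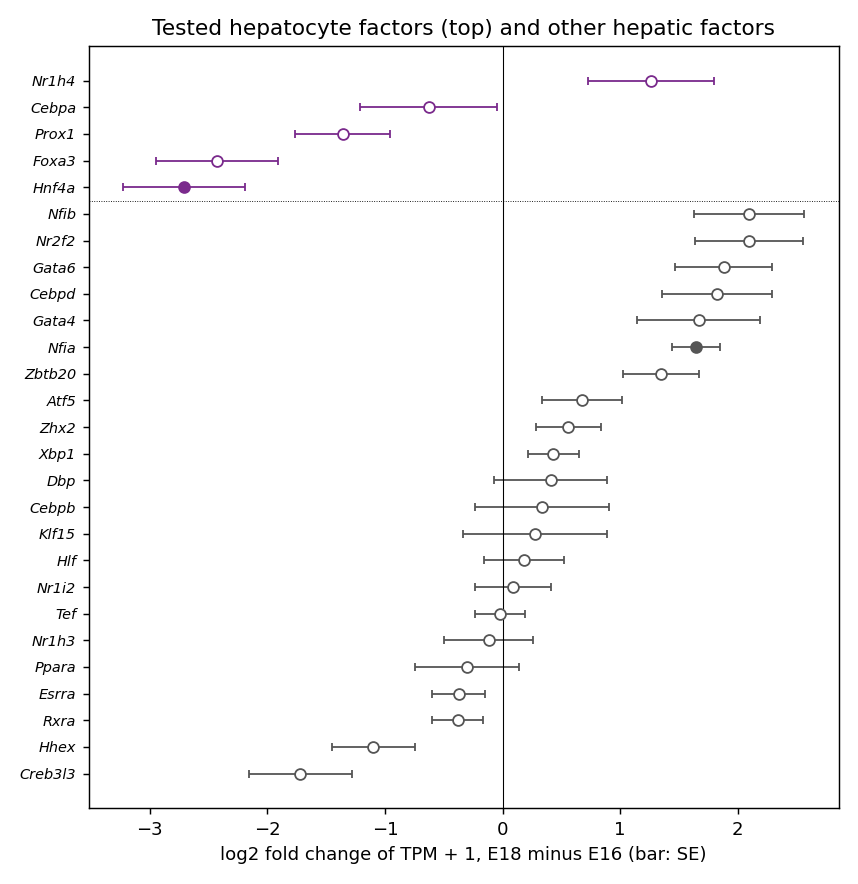
Log2 fold change of TPM + 1 from E16 to E18 with its SE for the 5 tested factors of the list (purple, above the dotted line) and 22 other hepatic factors (grey), filled where the limma adjusted p was under 0.05. Hnf4a and Nfia are the filled points, on opposite sides of 0.

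Genes under the control of FXR and LRH-1 were read beside Nr1h4 and Nr5a2. Of 14 listed bile acid genes 8 were tested, 0 were called higher (also 0 at an unadjusted p under 0.05 and 0 by voom) and 1 lower, beside 3.08% called higher over all genes, a share that 0 of 8 does not depart from. The called gene was Klb, the co-receptor for the FGF signal that restrains bile acid synthesis, which fell from 3.23 ± 0.848 to 0.385 ± 0.265 TPM (SD, n = 3; log2 fold change −1.61 ± 0.33; limma adjusted p = 0.0492). Klb passed the filter through its E16 values alone, so it had to differ between days. Its call held in 5 of 16 alternatives and was lost without any 1 library (limma adjusted p 0.0718 to 0.131). The uptake carrier Slc10a1 (36.5 ± 13.3 and 71.3 ± 33.0 TPM), the conjugation gene Slc27a5 (4.94 ± 4.58 and 1.29 ± 0.983 TPM) and the bile salt pump Abcb11 (1.88 ± 1.51 and 0.747 ± 0.690 TPM) overlapped between days, at limma adjusted p of 0.287, 0.339 and 0.502. Nr0b2, the classic FXR target SHP, was above 0 only in E16 replicate C, at 7 reads, and Slc51b was listed at 0 in all 6 libraries; both were picked after their values were seen.

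Metabolic targets of HNF4A, C/EBP alpha and the FOXA proteins mostly had negative fold changes. Of 13 listed gluconeogenic and amino acid genes 9 were tested and 0 called by limma on log2(TPM + 1), beside 3.47% called in either direction over all genes. At an unadjusted p under 0.05, 6 were lower, beside 5.65% of all genes. Voom on recovered reads called 1 lower, beside 0.999% of all genes. The scaling without Gm26917, mitochondrial and small RNA genes called 3, where it called 1.49% of all genes lower. Of the tested genes 7 of 9 fold changes were negative, and the median was −1.54. Among the smallest p were those of the urea cycle gene Ass1 (61.5 ± 33.5 and 19.0 ± 4.63 TPM), the glycogen synthase gene Gys2 (8.08 ± 6.64 and 0.807 ± 0.941 TPM), and the urea cycle gene Otc (2.98 ± 1.44 and 0.502 ± 0.180 TPM). Their limma adjusted p ran from 0.0671 to 0.0833, and in each the days did not overlap; Otc passed the filter through E16 alone. G6pc and Tat, which are switched on around birth, were listed at 0 in all 6 libraries. Of the 20 plasma protein genes 19 were tested, 7 were called lower and 0 higher, with a median log2 fold change of −2.40. The 7 calls lower, against 0.387% of all genes, became 0 without replicate A or C of E16 or replicate A or B of E18, 2 without E16 replicate B, and 12 after the scaling without Gm26917, mitochondrial and small RNA genes.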

How the data were processed

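RNA was measured in 3 E16 and 3 E18 libraries from sorted eYFP-positive fetal liver cells. The authors deposited TPM for 54532 genes; the submitters' processing notes name mm10, FastQC 0.11.7, Bowtie, HTSeq 0.5.4p3 and HISAT2 2.1.0, with no role or order. The sources used here do not give the strand setting, the annotation release or how TPM was computed. Symbols came from a table that matched 54409 identifiers; GENCODE M21 (GRCm38) supplied positions, counted from 1, and merged exon lengths, and RefSeq (GRCm38.p6) the promoter sequences.

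TPM multiplied by merged exon length gave whole reads, within 0.05, for 96.8% to 97.1% of non-zero values per library and for 54 of 54 values of the 9 factors. Intervals on reads (exact, 95%) and floors (3 reads) cover counting error only. No library repeats another: chi-square over its degrees of freedom was 18.9 to 95.6 for pairs within a day.

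The days were compared in limma 3.58.1 under R 4.3.3. Input was log2(TPM + 1) of the 17824 genes that reached a TPM of 1 in 3 or more libraries; the prior variance followed a trend on abundance, and 2-sided p-values were Benjamini-Hochberg adjusted. Fold changes on this scale understate those of low genes. Single values were compared by exact permutation. The steps were tested on simulated data. The 9 factors, the other lists and the naming rule (every factor, the 4 tested members of smallest p of each functional list, called members of the list of other hepatic factors, and the 5 genes of closest profile) were chosen with earlier results of these data known. Alternatives covered the pseudocount, filter, scaling, weights, block, read counts and each library left out. Some genes that this rule names are not reported here. Figures were drawn with Matplotlib 3.10.9.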

Additional observations from a re-analysis of the deposited data

How the results depend on the processing

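All 16 alternative fits kept the direction of Hnf4a, Foxa3, Cebpa, Prox1 and Nr1h4; Hnf4a lost its call in 10, Foxa3 gained one in 3, and Prox1 and Nr1h4 in 1 each (array weights). The 618 genes called in all became 347 with a pseudocount of 5, 1069 after scaling without Gm26917, mitochondrial and small RNA genes (76.5% of them higher, against 88.8%), 4316 with array weights (64.8% higher), 1469 with voom on recovered reads and 1656 with voom on genes of at least 10 reads, the last chosen after seeing the data. The limma count was 0 without a filter on low values, where 4571 genes had an unadjusted p under 0.05. With 1 library left out it ran from 0 to 664: 0 without replicate A or C of E16 or replicate A or B of E18 (2765 to 3438 genes at an unadjusted p under 0.05), and 55 without E16 replicate B. The cause of these shifts was not tested.

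With the letter as a replicate block limma called 0 genes (3195 at an unadjusted p under 0.05), and the calls of Hnf4a, Nfia and Klb were lost (adjusted p = 0.0896, 0.0820 and 0.125). Whether the letters pair the libraries is not stated. Deviations from the day means correlated at 0.10, −0.14 and −0.12 between same-lettered libraries, and not every library correlated best with its own letter. With 3 libraries a day such correlations cannot exclude a pairing.

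The summed factors differed by −2.52 on the log2 scale without Nr1h4, by −0.92 without Hnf4a (exact permutation p = 0.2), against −1.57 with all 9, and by −1.90 to −1.03 with 1 library left out. Per plasma protein TPM the log2 difference was 1.54 without Hnf4a and −0.0586 without Nr1h4, against 0.89, and 0.73 to 1.13 with 1 library left out. With Alb alone as the denominator the difference for all 9 was 0.69 (exact permutation p = 0.2, 2-sided). With the plasma proteins other than Alb it was 1.17 (exact permutation p = 0.1, 2-sided). Leaving out Nr1h4 was chosen after seeing the data. At E18 depth a factor under about 1 TPM rests on few reads.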

Other observations

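Abcb4, which exports phosphatidylcholine into bile, stood above every one of the 9 factors in each library, at 81.8, 86.5 and 79.2 TPM at E16 and 93.5, 86.1 and 96.2 TPM at E18, on 3693 to 5393 reads, nearly level across libraries whose plasma protein sum ran from 427 to 10070 TPM. Slc10a1, the bile acid uptake carrier of hepatocytes, was at 46.3, 21.4 and 41.7 TPM at E16 and 74.8, 102 and 36.7 TPM at E18, lowest in E16 replicate B, where the plasma proteins were highest. Abcb11, the canalicular bile salt pump, was at 0.939, 3.63 and 1.08 TPM at E16 and 0, 1.36 and 0.879 TPM at E18.

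Genes whose profile was closest to that of Nr1h4, picked after its values were seen, were Bin1 at 3.0 percentage points, Cyp4f13 at 3.16, Lgals2 at 3.39, Inpp5a at 3.40 and C1qtnf6 at 3.53. None was among the plasma protein or bile acid genes listed, and the distances were larger than those found for Hnf4a.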
